A study of Mus musculus with 4 samples.

Results

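The 36 genes described here make up the working machinery of the fat cell in mouse back skin: its secreted hormones, its fuel uptake proteins, its triglyceride and lipid droplet proteins, its transcription factors, and the enzymes that make fatty acids from glucose. They were chosen as a gene list by function, with earlier results of these data known. Counts of members set beside all genes below therefore describe the list and do not test it. Their probes were found by gene name, older names included, on Agilent whole-genome mouse arrays. A probe carried the name of 34 of the 36 genes, and 33 passed the filter on dim probes, out of 15552 genes tested. Pck1, an enzyme that supplies glycerol for triglyceride, and Adrb3, the fat cell's adrenergic receptor, had no probe by that name among the rows used and are not analysed here.

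The samples were total RNA from back skin at postnatal day 10, when the hair follicles are growing and the fat layer under the dermis is thick. The 2 conditional knockout (cKO) mice carried Adam17 flox/flox and a Krt14-Cre transgene, which deletes the sheddase ADAM17 in keratinocytes, the cells in which the keratin 14 promoter is active. The 2 control mice were Krt14-Cre negative littermates, which carry at least 1 floxed allele from the same cross, so the groups differ in Cre as well as in ADAM17. All were of a mixed 129Sv and C57BL/6 background, and each of 2 litters gave 1 control and 1 cKO sample. The deletion was thus made in keratinocytes of the epidermis and hair follicle, and not in fat cells. Some of the genes described here, the lipogenic ones among them, are also expressed in other cells of skin. The arrays of whole skin do not show which cells gave a signal.

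Each value below is the log2 signal relative to the array's 75th percentile, and each difference is cKO minus control on that scale, so that 1 means a doubled signal. A difference is followed by its standard error (SE), and the adjusted p is limma's, corrected by the Benjamini-Hochberg method over all 15552 genes. The threshold was 0.05. Between 53.7% and 56.6% of the 43379 gene spots on an array were well above background, and no member probe was saturated. Adam17 itself measured 0.44 and 0.37 in the controls and -0.138 and -0.125 in the cKO samples, a difference of -0.54 ± 0.09 (limma adjusted p = 0.114). Its groups did not overlap, in the direction of the labels, although whole skin also contains cells without Cre, and the place of the probe relative to the deleted part was not settled.

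White fat cells store triglyceride in 1 large droplet. They take up fatty acids released from lipoproteins by lipoprotein lipase, or make them from citrate through ATP citrate lyase, acetyl-CoA carboxylase and fatty acid synthase, and join them to glycerol. The droplet is coated by perilipins and emptied by lipases, while the cell secretes adiponectin, leptin, adipsin and, in the mouse, resistin. PPARγ and C/EBPα switch on this program, and SREBP1 and ChREBP (the product of Mlxipl) switch on the lipogenic enzymes. In skin the fat layer thickens while hair follicles grow. Several of the genes are not restricted to fat: sebaceous glands also make fatty acids through Fasn and Acaca, skeletal muscle expresses Slc2a4, Lpl and Car3, and capillary endothelium and macrophages express Cd36 and Fabp4.

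Fat cell markers were detected in each of the 4 samples, among those of the other cells of whole skin. All 6 of the marker genes used for fat cells (Adipoq, Plin1, Cidec, Fabp4, Lep and Cfd) were well above background on every array. Their mean level was 3.88 and 3.61 in the controls and 4.29 and 4.17 in the cKO samples of litters 1 and 2. This mean was thus higher in the cKO sample of each litter, but not every marker was. Of the 6, which are also members, 4 were higher in both litters. Fabp4 (-0.08 and 0.08) and Lep (0.63 and -0.29) split between the litters. Ucp1, the defining protein of brown fat, was not well above background on any array. In whole skin, a larger number of fat cells and more of a given RNA per fat cell cannot be told apart.

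The hormone gene Retn and the lipogenic gene Thrsp had the smallest p of the members. The probes behind these values are shown because the size of both differences rests on them. Both Retn probes join sequence across a splice, spanning 822 bases each at chr8:3656107-3656928 and chr8:3656145-3656966 of the mm9 build given in the array files, and the capitals mark the 22 bases they share. The Thrsp probe lies at chr7:104565562-104565621 of mm9.
Retn first probe: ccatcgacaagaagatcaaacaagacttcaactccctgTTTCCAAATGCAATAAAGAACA
Retn second probe: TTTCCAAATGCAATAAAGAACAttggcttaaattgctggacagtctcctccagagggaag
Thrsp probe: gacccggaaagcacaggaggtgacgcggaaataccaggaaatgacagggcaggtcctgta

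Over all the members that could be measured, the differences lay mostly above 0, but no member passed the threshold. Limma called 0 of 33 members at an adjusted p under 0.05, where it called 0.341% of all genes (0.0707% higher and 0.27% lower). With litter as a block limma called 0 members and 0 of all genes, of which 3706 had an unadjusted p under 0.05. At an unadjusted p under 0.05 there were 14 members, 13 higher and 1 lower, beside 8.04% of all genes higher and 8.11% lower. The cKO sample was the higher one in both litters for 23 members (40.4% of all genes) and the lower one in both for 5 (32.1% of all genes), while 5 members split between the litters. Both cKO arrays exceeded both control arrays for 18 members (28.0% of all genes) and lay below them for 4 (21.4% of all genes). The members' median was 0.17 (litter 1, 0.20; litter 2, 0.18), against 0.03 for all genes, and the members ranged from -0.31 (Me1) to 1.68 (Retn). Each p and SE rests on the spread between the 2 animals of a group, which came from different litters. Limma moderates that spread toward the one typical of all genes, so the SE is not that of the gene's own samples alone.

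**Figure D1:**
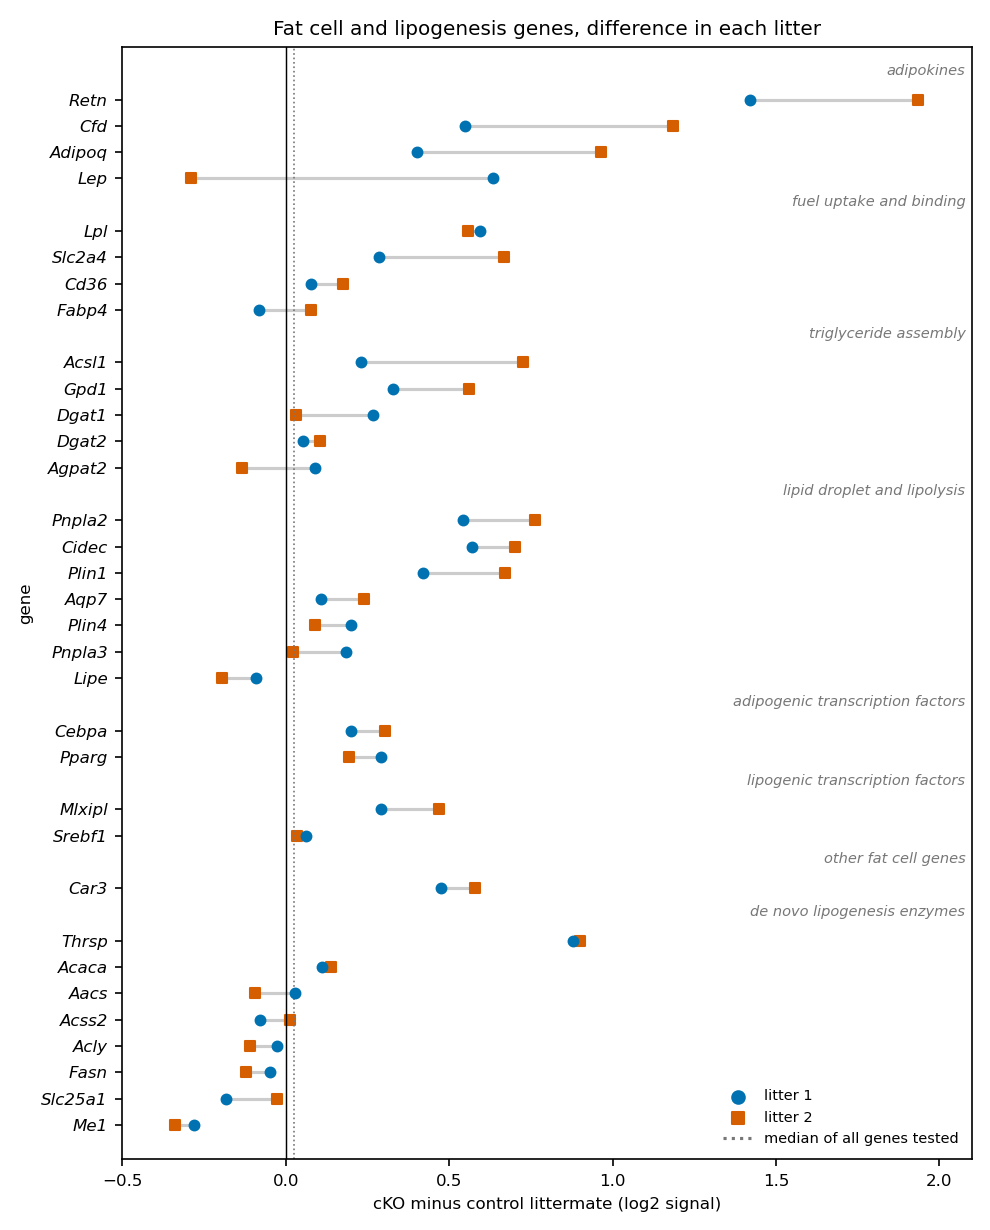
Difference between the cKO and control littermate (x axis, log2 signal) for each of the 33 members (y axis), grouped by role, with a circle for litter 1 and a square for litter 2; the dotted line is the median of all genes tested, 0.03. Retn lies farthest to the right in both litters, and apart from Thrsp the enzymes of fatty acid synthesis lie close to 0 or below it.

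Among the hormones, 3 of 4 were higher in both litters and did not overlap between groups, beside 40.4% and 28.0% of all genes, and leptin was the exception. Retn encodes resistin, a small secreted protein of mouse white fat cells. It measured -0.92 and -1.23 in the controls and 0.50 and 0.71 in the cKO samples, or -1.08 ± 0.22 against 0.60 ± 0.15 (SD, n = 2 each). Every cKO value was above every control value, by 1.42 within litter 1 and 1.94 within litter 2. The difference was 1.68 ± 0.15, a 3.20-fold higher signal, with a limma adjusted p of 0.0534, just short of the threshold. The second probe, which shares 22 bases with the first, gave 1.73. Normexp gave 1.42 for Retn but 0.54 for Cfd and 0.38 for Adipoq, described next. Among the other members it lowered were Cidec (0.32), Plin1 (0.28), Lpl (0.27), Car3 (0.234), Gpd1 (0.19) and Acsl1 (0.17).

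Cfd encodes adipsin, a complement protease secreted by fat cells. It measured 6.74 and 6.01 in the controls and 7.29 and 7.19 in the cKO samples, a difference of 0.87 ± 0.26 (limma adjusted p = 0.246). Adipoq encodes adiponectin, an insulin-sensitizing hormone. Its controls measured 3.89 and 3.28 and its cKO samples 4.29 and 4.24, a difference of 0.68 ± 0.22 (limma adjusted p = 0.270). For both genes the 2 cKO samples lay close together (SD 0.07 for Cfd and 0.03 for Adipoq), while the 2 controls were spread (SD 0.52 and 0.43), the control of litter 2 being the lower. The difference was therefore larger in litter 2, at 1.18 for Cfd and 0.96 for Adipoq, than in litter 1, at 0.55 and 0.40.

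Lep encodes leptin, the satiety hormone, whose level follows fat cell size. Its probe measured -1.34 and -1.05 in the controls and -0.71 and -1.34 in the cKO samples, so the groups overlapped. The cKO sample minus its control was 0.63 in litter 1 and -0.29 in litter 2. This probe was printed 10 times on each array, and the SD between those spots was 0.05 to 0.07 on the 4 arrays, which measures the error of the spots and not the spread between animals. The mean difference was 0.17 ± 0.25 (limma adjusted p = 0.776).

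**Figure D2:**
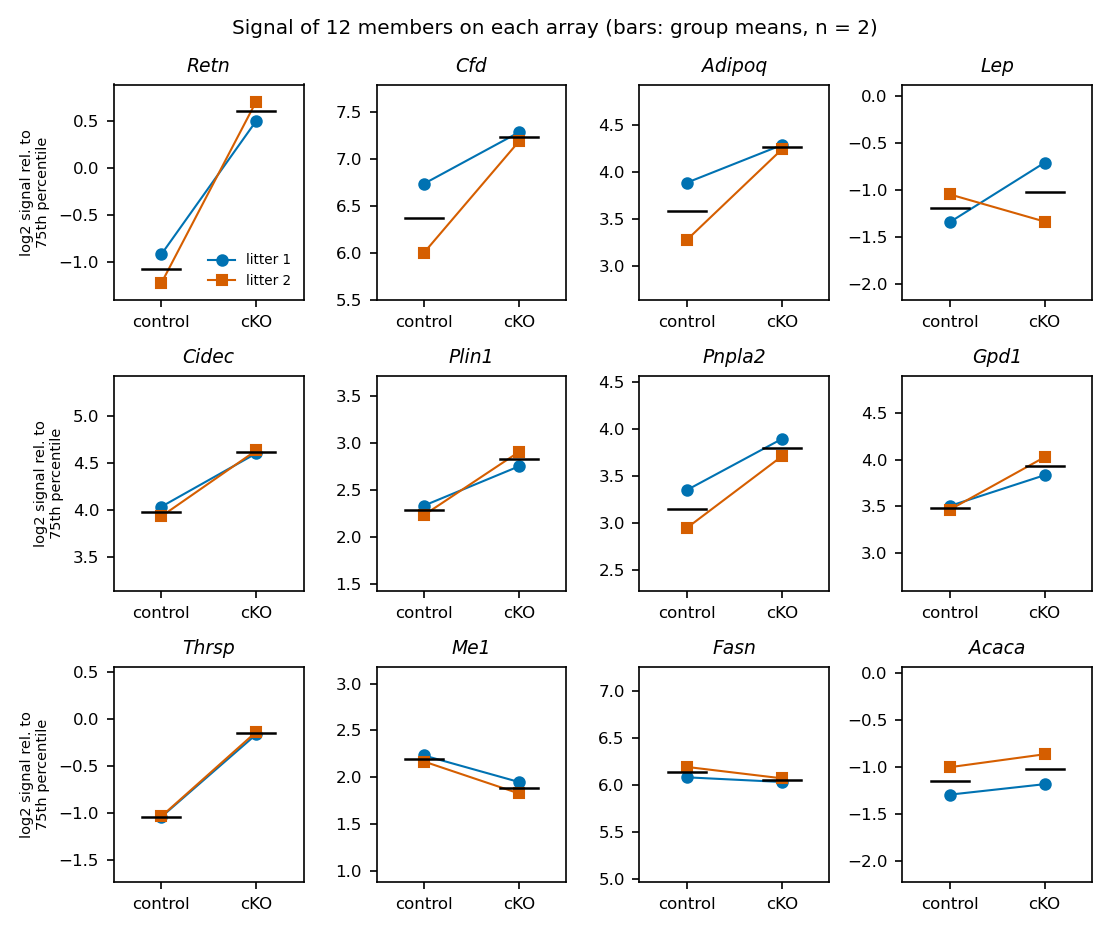
Log2 signal relative to the array's 75th percentile (y axis, the same span in every panel) of 12 members in control and cKO samples (x axis); circles and squares are litters 1 and 2, lines join littermates, and black bars are group means of 2 samples. Retn and Thrsp separate the groups in both litters, Cfd and Adipoq have spread controls and tight cKO samples, and the lines of Lep cross.

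Of the 4 genes for fuel uptake and binding, 3 were higher in both litters, beside 40.4% of all genes, and the median difference of the 4 was 0.30. That median was 0.144 without control replicate 2, 0.162 without cKO replicate 1 (2 genes above and 2 below 0 in each), 0.46 without control replicate 1 and 0.083 with normexp. Lpl, the enzyme that frees fatty acids from circulating lipoproteins, measured 4.52 and 4.10 in the controls and 5.12 and 4.66 in the cKO samples. Its difference of 0.58 ± 0.23 (limma adjusted p = 0.328) was 0.59 in litter 1 and 0.56 in litter 2, and litter 2 lay below litter 1 in both groups. A second Lpl probe gave 0.30. Slc2a4, the insulin-responsive glucose transporter GLUT4, measured 1.41 and 1.18 in the controls and 1.70 and 1.85 in the cKO samples, without overlap, for a difference of 0.48 ± 0.12 (limma adjusted p = 0.209).

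The remaining genes of this role showed smaller differences for the probe used. Cd36, a fatty acid transporter, had a difference of 0.13 ± 0.19 with overlapping groups, and -0.10 with the normexp background correction. A second Cd36 probe gave 0.25, with 0.19 in litter 1 and 0.30 in litter 2. Fabp4, the fatty acid binding protein of the fat cell cytoplasm, measured 7.62 and 7.29 in the controls and 7.54 and 7.37 in the cKO samples. Its difference was -0.00146 ± 0.15 (limma adjusted p = 0.997), -0.08 in litter 1 and 0.08 in litter 2, and its other probes gave -0.02 and -0.08. The groups overlapped.

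Among the genes that assemble triglyceride, the larger differences were those of 2 genes at the entry of the pathway. Acsl1 activates fatty acids to their CoA esters. It measured 3.84 and 3.63 in the controls and 4.07 and 4.35 in the cKO samples, a difference of 0.48 ± 0.15 (limma adjusted p = 0.246), and its other 2 probes gave 0.46 and 0.42. Gpd1 makes the glycerol 3-phosphate backbone. It measured 3.50 and 3.46 in the controls and 3.83 and 4.02 in the cKO samples, a difference of 0.44 ± 0.10 (limma adjusted p = 0.188). Neither gene's groups overlapped. The acyltransferases gave smaller values: Dgat1 0.15 ± 0.10, Dgat2 0.08 ± 0.11 and Agpat2 -0.02 ± 0.14, with limma adjusted p from 0.528 to 0.952. The 3 Dgat2 probes did not share a sign, the Dgat2 difference was -0.23 with normexp, and Agpat2 split between the litters. The median of the 5 measured genes of this role was 0.15, and 0.089 without control replicate 1 and 0.064 with normexp.

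Droplet genes were higher in both litters for 6 of 7 members, beside 40.4% of all genes, and 3 of the 6 had differences above 0.5. With normexp 4 of the 7 lay above 0 and 3 below, against 6 and 1 in the main setting. Cidec fuses small droplets into the single large droplet of the white fat cell. It measured 4.03 and 3.93 in the controls and 4.60 and 4.63 in the cKO samples. The groups were far apart relative to their spread, and the difference of 0.64 ± 0.09 (1.55-fold; limma adjusted p = 0.0951) had the third smallest p of the members. Plin1, the perilipin that coats the droplet and holds back lipases, measured 2.33 and 2.23 in the controls and 2.75 and 2.90 in the cKO samples, a difference of 0.55 ± 0.10 (limma adjusted p = 0.138). Its cKO values both lay above its control values.

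The lipases did not share a direction. Pnpla2 encodes adipose triglyceride lipase, which removes the first fatty acid. It measured 3.35 and 2.94 in the controls and 3.89 and 3.71 in the cKO samples, a difference of 0.65 ± 0.17 (limma adjusted p = 0.211), and its second probe gave 0.69. Lipe encodes hormone-sensitive lipase, which removes the next one. It measured 0.23 and 0.19 in the controls and 0.13 and -0.000551 in the cKO samples, a difference of -0.14 ± 0.09 (limma adjusted p = 0.523). Lipe was the only member outside the lipogenic enzymes that was lower in both litters, and its second probe gave -0.08. The remaining droplet genes had small positive differences for the probe used. Plin4, another droplet coat protein, had 0.15 ± 0.11, Aqp7, a glycerol channel, 0.17 ± 0.10, and Pnpla3, a lipase relative, 0.10 ± 0.15. For Aqp7 the second probe gave a larger difference of 0.39, with 0.27 and 0.51 in the litters. With normexp Plin4 was at -0.12 and Pnpla3 at -0.0205, while Aqp7 was at 0.56.

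The transcription factors that establish the fat cell had small positive differences, and neither passed the threshold. Pparg measured 0.92 and 0.87 in the controls and 1.21 and 1.07 in the cKO samples, a difference of 0.24 ± 0.10 (limma adjusted p = 0.335). Cebpa measured 2.07 and 2.06 in the controls and 2.27 and 2.36 in the cKO samples, a difference of 0.25 ± 0.09 (limma adjusted p = 0.290). Neither overlapped between groups, and the signals were 1.18-fold and 1.19-fold those of the controls. With normexp the differences were 0.11 for Pparg and 0.02 for Cebpa. Of the lipogenic factors, Mlxipl, which encodes the glucose-sensing factor ChREBP, measured -1.59 and -1.65 in the controls and -1.30 and -1.19 in the cKO samples, a difference of 0.38 ± 0.09 (limma adjusted p = 0.194). Srebf1, which encodes the insulin-responsive and sterol-regulated factor SREBP1, had a difference of 0.05 ± 0.11 with overlapping groups, and -0.25 with normexp. Car3, a carbonic anhydrase abundant in fat cells and muscle, measured 4.42 and 4.16 in the controls and 4.90 and 4.74 in the cKO samples. Its difference was 0.53 ± 0.13 (limma adjusted p = 0.199), but 0.234 with normexp. A second Car3 probe was -0.03 in litter 1 and 0.61 in litter 2.

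The enzymes of fatty acid synthesis did not share the shift of the other members. Over 8 genes they had a median of -0.05 (litter 1, -0.04; litter 2, -0.06), whereas the other 25 members had a median of 0.25 (0.29 and 0.30). Of these 8 genes, 2 were higher in both litters (40.4% of all genes), 4 were lower in both (32.1% of all genes) and 2 split. Of the other 25 members, 21 were higher in both, 1 was lower in both and 3 split. The median of the enzymes minus that of the others was -0.30, and its SD over the 2 litters was 0.03. Without Thrsp the median of the remaining 7 genes, among them the carrier Slc25a1, was -0.07. The enzymes' own median was -0.261 with normexp, -0.098 and -0.1 without control replicate 1 or cKO replicate 2, and -0.003 and -0.012 without control replicate 2 or cKO replicate 1, where 4 lay above and 4 below 0 in place of 2 and 6.

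Thrsp, grouped with the enzymes, stood apart from them. It encodes Spot 14, a small regulatory protein of lipogenesis that is induced by thyroid hormone and carbohydrate in fat and liver, and it is not itself an enzyme. It measured -1.04 and -1.04 in the controls and -0.16 and -0.14 in the cKO samples. The replicates of each group were close together (SD 0.00386 for controls and 0.02 for cKO), and the difference was 0.88 in litter 1 and 0.90 in litter 2. At 0.89 ± 0.08, a 1.85-fold higher signal, its limma adjusted p was 0.0534, as for Retn.

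The other genes of the fatty acid synthesis list, all enzymes but the carrier Slc25a1, lay near 0 in the main setting apart from Me1. Fasn, the fatty acid synthase, measured 6.08 and 6.19 in the controls and 6.03 and 6.07 in the cKO samples, a difference of -0.09 ± 0.09 (limma adjusted p = 0.690). A second Fasn probe gave 0.09, so the 2 probes differed in sign. Acaca, the acetyl-CoA carboxylase that makes malonyl-CoA, measured -1.30 and -1.01 in the controls and -1.19 and -0.87 in the cKO samples. Its difference was 0.12 ± 0.17 with overlapping groups. A second, dimmer Acaca probe gave 0.00547 and split between the litters (0.17 and -0.16). Acly, which makes cytosolic acetyl-CoA from citrate, had a difference of -0.07 ± 0.10, and Slc25a1, the mitochondrial citrate carrier, -0.10 ± 0.09. Acss2 and Aacs, which make acetyl-CoA from acetate and acetoacetyl-CoA from acetoacetate, both gave -0.03 and split between the litters. A second Acss2 probe gave -0.16 and was lower in both litters (-0.27 and -0.04).

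Me1, the malic enzyme that supplies NADPH to fatty acid synthase, had the lowest difference of the members. It measured 2.23 and 2.17 in the controls and 1.95 and 1.83 in the cKO samples, 80.6% of the control signal, with a difference of -0.31 ± 0.09 (limma adjusted p = 0.243). Both cKO values lay below both control values. A second Me1 probe gave -0.66 in each litter, so the probes shared the sign but not the size. With the probes of each gene averaged instead, the Me1 difference was -0.49 (limma adjusted p = 0.125, the lowest over 12 processing alternatives, whose highest was 0.729).

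Retn and Thrsp changed side of the threshold with the scaling of the arrays. With quantile normalization their limma adjusted p was 0.0490 and 0.0496, and with the array median in place of the 75th percentile it was 0.0299 and 0.0488. Over all 12 alternatives the adjusted p ranged from 0.0299 to 0.729 for Retn and from 0.0488 to 0.729 for Thrsp, the difference from 1.42 to 1.83 for Retn and from 0.76 to 0.90 for Thrsp. With litter as a block, which pairs the littermates, it was 0.0990 for Retn and 0.0925 for Thrsp. The differences thus kept their direction in every alternative, and both passed the threshold in 2 of the 12. With litter as a block or other filters the direction could not change, since these leave each member's difference as it is.

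**Figure D3:**
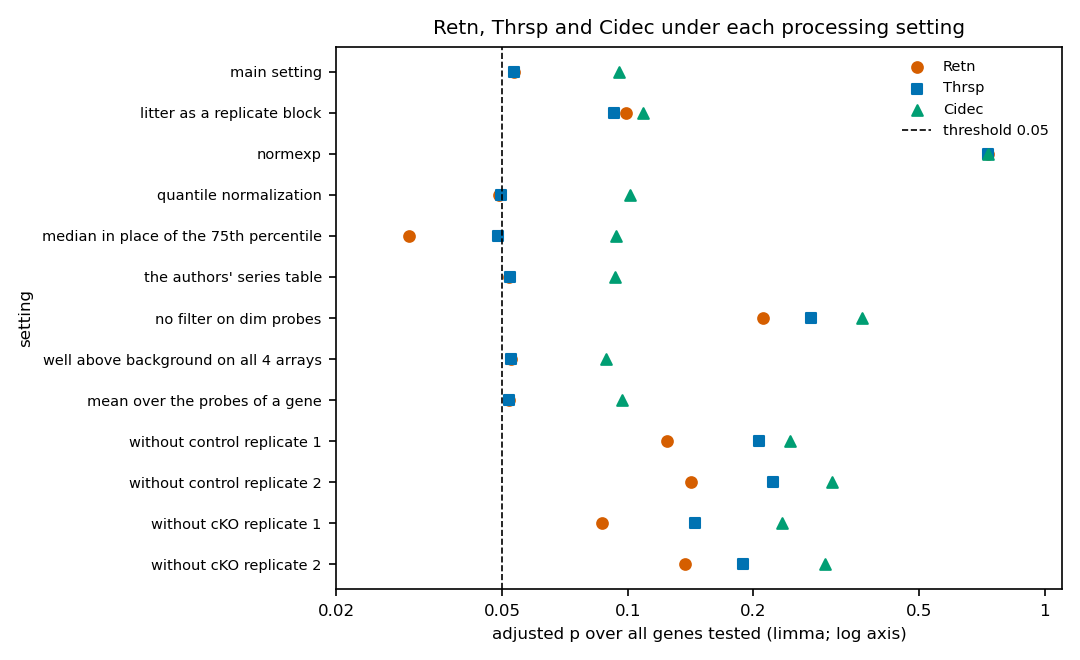
Limma adjusted p over all genes (x axis, log scale) of Retn (circles), Thrsp (squares) and Cidec (triangles) under the main setting and 12 alternatives (y axis); the dashed line is the threshold of 0.05. Retn and Thrsp lie just right of the line in the main setting at 0.0534 and cross it under quantile and median scaling only, and Cidec does not cross it under any setting plotted.

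The promoters of a few members are given so that members with and without a difference can be set side by side: Thrsp and Retn with the smallest p, Plin1 from the droplet genes, and Fasn from the enzymes. RefSeq promoter windows, cut to the 250 bases before the gene start, were found for 28 members (38 windows, as some genes have several starts) among 32851 windows of GRCm38.p6. Capitals mark the CCAAT box (CCAAT, or ATTGG for the opposite strand) and the C/EBP site (TTNNGCAA on either strand). The windows, on their gene's strand, lie at chr7:97417551-97417800 (minus) for Thrsp, chr11:120824548-120824797 (minus) for Fasn, chr8:3655520-3655769 (plus) for Retn and chr7:79732777-79733026 (minus) for Plin1.
Thrsp promoter: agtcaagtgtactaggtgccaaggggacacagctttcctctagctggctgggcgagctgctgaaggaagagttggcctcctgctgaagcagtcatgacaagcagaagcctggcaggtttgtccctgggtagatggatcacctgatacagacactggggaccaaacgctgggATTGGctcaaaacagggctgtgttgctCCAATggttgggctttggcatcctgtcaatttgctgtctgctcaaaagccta
Fasn promoter: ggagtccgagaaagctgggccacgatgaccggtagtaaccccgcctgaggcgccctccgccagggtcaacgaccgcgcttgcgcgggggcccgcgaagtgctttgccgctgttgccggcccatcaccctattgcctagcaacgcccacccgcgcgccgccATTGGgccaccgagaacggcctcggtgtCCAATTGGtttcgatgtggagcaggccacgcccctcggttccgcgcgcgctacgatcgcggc
Retn promoter: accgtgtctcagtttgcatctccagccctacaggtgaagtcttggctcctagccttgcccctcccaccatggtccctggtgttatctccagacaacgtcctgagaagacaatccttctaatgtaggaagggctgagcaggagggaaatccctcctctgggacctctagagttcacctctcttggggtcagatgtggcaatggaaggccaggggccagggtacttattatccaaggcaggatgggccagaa
Plin1 promoter: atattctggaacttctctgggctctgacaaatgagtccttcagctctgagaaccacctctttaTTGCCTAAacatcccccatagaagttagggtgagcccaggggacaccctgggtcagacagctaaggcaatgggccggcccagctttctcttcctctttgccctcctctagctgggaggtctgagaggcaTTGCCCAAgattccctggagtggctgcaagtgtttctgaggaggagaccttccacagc

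The windows of Thrsp and Fasn, with differences of 0.89 and -0.09, both held CCAAT boxes on both strands. In all, 15 of 38 member windows, of 13 genes, held a CCAAT box, beside 33.8% of all windows. The C/EBP site occurred in windows of 5 members (Aacs, Cidec, Lep, Plin1 and Pparg), beside 9.56% of all windows. The palindromic E-box CACGTG was in windows of Lipe, Mlxipl and Slc25a1 (6.02% of all windows), and the sterol regulatory element TCACNCCAC in those of Acsl1 and Mlxipl (1.05%). The carbohydrate response element, searched as a pair of E-boxes with 5 bases between them, was in no window of the table, and the PPAR direct repeat of type DR1 was in 0.0335% of windows and in none of the members'. Both strands were searched for each motif, and a match or its lack describes only these letters in this window.

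Genes of neighbouring lipid pathways extend the comparison. In the list for fatty acid elongation, desaturation and supply, the median of 19 measured genes was -0.10. In both litters 12 were lower and 4 higher, beside 32.1% and 40.4% of all genes. Limma called 0 of the 19, and 4 had an unadjusted p under 0.05, all lower, beside 16.2% of all genes (8.11% lower). The median was -0.245 with normexp, -0.153 without control replicate 2 and -0.183 without cKO replicate 1. Fads2, the delta-6 desaturase, had a difference of -0.56 ± 0.10 (limma adjusted p = 0.133). G6pdx and Tkt, of the pentose phosphate pathway that provides NADPH and sugar phosphates, had -0.38 ± 0.08 and -0.34 ± 0.08. Like Me1, G6pdx supplies NADPH, and its cKO values of 4.21 and 4.24 lay below its control values of 4.63 and 4.59.

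Cholesterol synthesis genes had a median of -0.22 over 20 measured genes. In both litters 6 were higher and 14 lower, beside 40.4% and 32.1% of all genes. Limma called none of them, and 4 had an unadjusted p under 0.05, all lower, beside 16.2% of all genes (8.11% lower). With normexp the median was -0.406, and without cKO replicate 1 it was -0.148. Insig1, the sterol sensor that retains SREBP in the endoplasmic reticulum and is itself an SREBP target, measured 0.28 and 0.28 in the controls and -0.30 and -0.31 in the cKO samples, a difference of -0.58 ± 0.08 (limma adjusted p = 0.0951). Idi1, which makes dimethylallyl diphosphate, had -0.40 ± 0.09, and Cyp51, the lanosterol demethylase, -0.37 ± 0.09. These values stood beside a Srebf1 difference of 0.05, which was -0.25 with normexp. A relation between Srebf1 and these genes was not tested.

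The fatty acid oxidation list had a median of 0.01 over 19 measured genes (-0.149 with normexp), close to that of all genes, with 7 higher and 6 lower in both litters. The 3 genes of smallest p were nonetheless all lower and not called: Ppargc1a, a coactivator of mitochondrial genes, -1.003 ± 0.16 (limma adjusted p = 0.116), Ppara, the receptor that drives oxidation genes, -0.67 ± 0.15, and Ucp2, a mitochondrial carrier, -0.49 ± 0.12. With normexp background correction the Ppara difference was 0.53, so its direction depends on the background treatment, and that of Ppargc1a was -0.30.

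The brown and beige fat list had 9 measured genes of 12, a median of 0.06 (-0.09 with normexp and -0.063 without control replicate 2), and 2 genes higher and 2 lower in both litters. Cidea measured -0.41 ± 0.15, Cox8b 0.40 ± 0.17 and Tbx1 0.18 ± 0.10 (limma adjusted p from 0.312 to 0.452), and none was called. Cidea is also a sebaceous gland gene and Cox8b a muscle gene, so neither is specific to brown fat in skin, and for Tbx1 the difference was -0.10 with normexp.

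Of 27 other genes of the mature fat cell that were measured, 16 were higher in both litters and 6 lower, beside 40.4% and 32.1% of all genes. Their median was 0.20, with 0.14 in litter 1 and 0.18 in litter 2. An unadjusted limma p under 0.05 was found for 5, all higher, beside 16.2% of all genes (8.04% higher). The median was 0.054 without control replicate 2, and with normexp 14 genes lay above 0 and 13 below, against 20 and 7. Agt, the angiotensinogen gene, which fat cells express alongside other cells, was the only call. It measured 0.74 and 0.61 in the controls and 1.93 and 1.88 in the cKO samples, and rose by 1.23 ± 0.09, or 2.34-fold (limma adjusted p = 0.0428). With litter as a block its adjusted p was 0.0792. It was also lost with normexp (0.729) and with no filter on dim probes (0.213), and in each of the 4 fits that left out 1 sample (0.107 to 0.165), and the range over all 12 alternatives was 0.0244 to 0.729.

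Precursor and early adipogenesis genes had a median of 0.17 over 20 genes. In both litters 12 were higher and 4 lower, beside 40.4% and 32.1% of all genes, and limma called none. The median was 0.032 without control replicate 2, 0.048 without cKO replicate 1 and 0.044 with normexp. Fgf10, a growth factor for fat precursors, had a difference of 0.51 ± 0.10 (limma adjusted p = 0.140), Pdgfa, a growth factor for dermal fat progenitors, 0.32 ± 0.09, and Bmp2, which is also made in the hair follicle, -0.48 ± 0.10. The 3 genes thus did not share a direction, and with normexp Pdgfa was at 0.04 and Bmp2 at -0.10.

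Lists of genes of other cells in the biopsies had medians on both sides of 0, and limma called none of their genes. The list for skeletal muscle, which lies just under the dermal fat, had a median of 0.37 over 22 genes, 18 of them higher in both litters (40.4% of all genes). Its mean level was 4.16 and 3.81 in the controls and 4.34 and 4.36 in the cKO samples. Its litter medians were 0.17 and 0.59, and its median was 0.125 with normexp and 0.176 without control replicate 2. Of the 23 members higher in both litters, 17 had the larger difference in litter 2, as did 48.3% of all genes higher in both; the exceptions were Pparg, Lpl, Plin4, Pnpla3, Srebf1 and Dgat1. Of 9 macrophage genes 8 were higher in both litters (median 0.33, but 0.094 without control replicate 2 and 0.198 without cKO replicate 1), of 10 basal keratinocyte genes 9 were (median 0.21, but -0.058 with normexp), and all 4 red cell genes measured were lower in both (median -0.43, and -0.145 to -0.731 with a sample left out). Sebaceous gland genes, a list that shares Pparg with the members and Cidea with the brown fat list, had a median of -0.21 over 10 genes, with 0.02 in litter 1 and -0.30 in litter 2, and -0.02 without cKO replicate 2. Dermal fibroblast genes (0.01 over 12, but -0.232 with normexp) and endothelial genes (-0.05 over 10) lay near 0, and with a sample left out they ranged from -0.284 to 0.211 and from -0.143 to 0.089. The part of these cells in the members' values was not tested.

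**Figure D4:**
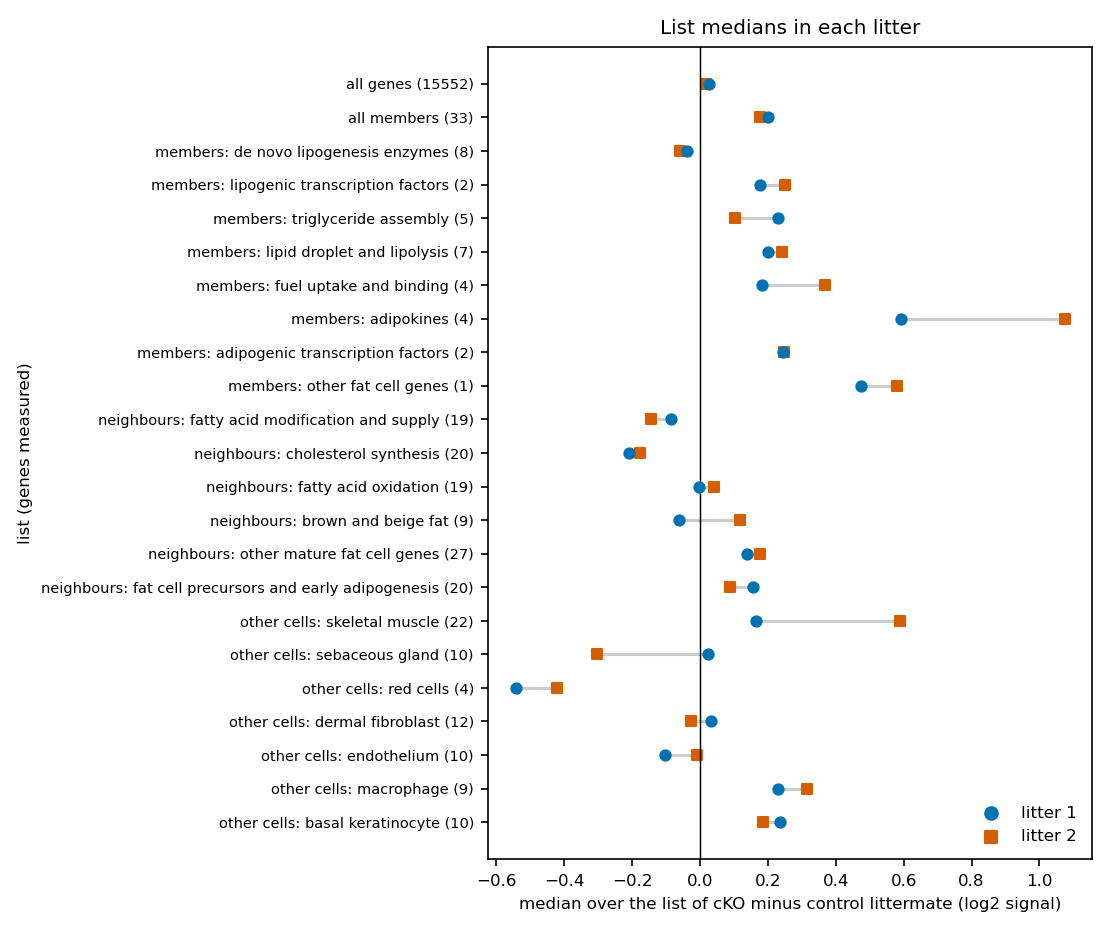
Median difference of each gene list between cKO and control littermates (x axis, log2 signal), with circles for litter 1 and squares for litter 2; the number of genes measured stands after each list name (y axis). The members' median is about 0.2 in both litters, that of the lipogenesis enzymes is just below 0, and the skeletal muscle median is 0.17 in litter 1 and 0.59 in litter 2.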

How the data were processed

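Total RNA from the 4 back skin samples was labelled with Cy3 from 500 ng and hybridised to 1-colour Agilent arrays (design 014868), per the labels' protocols. The deposited scanner files hold the processed intensity of each spot, background-corrected by Agilent Feature Extraction (version 10.7.3.1 per the file headers, 10.5 per the submitters' processing notes), and the authors' deposited series table holds log2 values of the same arrays, which matched the log2 signals once these were centred on each probe's median over the arrays (slope 0.9995 to 1.0003). Array medians in that table lay between -0.08 and 0.08. All 4 arrays were on 1 slide.

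Control spots and outlier spots were left out, each array was scaled to its 75th percentile on the log2 scale, and spots of a probe were averaged. A probe was kept if at least 50% of its spots were well above background on both arrays of a group (22190 of 41174 probes), and the brightest probe stood for a gene. Of the 41174 probes, 26690 were named through their accession, 952 through a synonym and 5189 through a symbol in the RefSeq table, and 8343 kept the file's name. The fit was limma 3.58.1 in R 4.3.3 (lmFit, eBayes) without a block. On simulated data with 200 changed genes and no litter effect, it recovered 43.6% of 2-fold and 89.1% of 4-fold changes. Of its calls there, 4.9% were false. A gene that was not called may therefore still differ. Replicate numbers mark litters in the labels, and littermates deviated together (correlation 0.35), so litter as a block was an alternative, beside normexp (offset 50), quantile and median scaling, the deposited table, other filters, probe means and leaving out each sample.

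Genes named are all members, Adam17, and of each neighbouring list the calls or else the 3 genes of smallest p; other cells are given by list only. The members and lists were chosen with earlier results of these data known. Promoter windows came from RefSeq (GRCm38.p6) and were not matched to the mm9 coordinates of the probes.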

Additional observations from a re-analysis of the deposited data

How the results depend on the processing

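With litter as a replicate block limma called 0 of 15552 genes (3706 with an unadjusted p under 0.05), against 53, or 0.341%, without it, and the call of Agt was lost. The share called was 0 with normexp (423 genes with an unadjusted p under 0.05) and with no filter on dim probes (2079), 0.187% with all 4 arrays well above background, 0.514% with quantile and 0.688% with median scaling. With a sample left out it ranged from 0 to 0.244%: 0 without control replicate 1 (1842 genes with an unadjusted p under 0.05) or control replicate 2 (1750), 0.244% without cKO replicate 1 and 0.154% without cKO replicate 2. The number of members called was 0 in the main setting and 2 (Retn and Thrsp) under quantile and under median scaling; it was 0 under the other 10 alternatives. The members' median of 0.17 became 0.11 with normexp and 0.17 to 0.26 with a sample left out. The median of the enzymes minus that of the others, -0.30, became -0.45 with normexp, -0.33 with probes averaged, and -0.42 to -0.31 with a sample left out, so it kept its sign.

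Of 33 members, 20 kept their sign under all 12 alternatives and 13 did not. Of 396 values, 26 had the other sign. Litter as a block leaves each difference as it is, and the other filters kept the same member probes. No member's sign could change in these alternatives, so they add nothing on stability. With normexp the members of the other sign were Cd36 (-0.10), Plin4 (-0.12), Pnpla3 (-0.0205), Srebf1 (-0.25) and Dgat2 (-0.23). Outside the members, Ppara (0.53) and Tbx1 (-0.10) also changed sign with normexp. Fabp4 became 0.13 with quantile scaling, 0.00627 with median scaling and 0.000474 in the deposited table, and Fasn 0.0025 with probes averaged. With a sample left out, ranges crossing 0 were -0.14 to 0.0765 for Aacs, -0.0346 to 0.28 for Acaca, -0.14 to 0.00263 for Acly, -0.10 to 0.0368 for Acss2, -0.19 to 0.14 for Agpat2, -0.0715 to 0.33 for Cd36, -0.00738 to 0.16 for Dgat2, -0.17 to 0.16 for Fabp4, -0.14 to 0.49 for Lep, -0.0559 to 0.26 for Pnpla3 and -0.0319 to 0.13 for Srebf1. Normexp also turned the list medians of fatty acid oxidation (-0.149), brown and beige fat (-0.09), fibroblasts (-0.232) and basal keratinocytes (-0.058), and that of fibroblasts turned with quantile scaling (-0.001), probe means (-0.033), and without control replicate 2 (-0.198) or cKO replicate 1 (-0.284). The endothelial median turned without control replicate 1 (0.089) or cKO replicate 2 (0.026), and that of brown and beige fat without control replicate 2 (-0.063). The causes were not tested. Signal over background limits Ucp1, which has no measured difference here, and 2 samples a group limit every p.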
